A study of Mus musculus with 5 samples.

Results

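Gene deserts are stretches of chromosome that lie far from every protein-coding gene. The regions described here are 2400 binding summits of KLF5, a DNA-binding protein of the Krüppel-like family, that fall in such stretches of the mouse genome. They were chosen by position alone: the summit had to lie on chromosomes 1 to 19, outside every RefSeq protein-coding gene and more than 100 kb from the start or end of any of them. They make up 5.36% of the 44760 summits on these chromosomes (95% interval 5.16 to 5.57) out of 45378 peaks in all. The summits come from chromatin immunoprecipitation and sequencing (ChIP-seq) with an anti-V5 antibody in wild-type mouse embryonic stem (ES) cells derived from C57B6/J mice and overexpressing V5-KLF5, KLF5 with a short peptide tag. An immunoprecipitate with mouse normal IgG and input DNA came from the same cells. An anti-V5 immunoprecipitate and input DNA came from ES-D3 cells, a wild-type mouse ES line without the tag. Each of these 5 groups is 1 library, so no value below has a replicate error, no test between groups was possible, and every interval covers counting error only. KLF5 is present in ES cells without the tag, and the summits are those of the overexpressed protein; the promoter that drives its expression is not stated in the labels. Peak lists hold no expression values, so the cell type could not be checked against marker genes.

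KLF5 belongs to the factors that keep ES cells pluripotent, together with its relatives KLF4 and KLF2, and in the early embryo it acts in the trophectoderm and the inner cell mass. Its zinc fingers read G-rich sequences of the GC-box and CACCC-box type. Enhancers can act on genes over long distances, and regulators of development in particular often sit beside long stretches without other genes that carry such elements, while large cell-adhesion genes of neurons are another class that often borders gene deserts.

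Sequence was at hand for promoter windows and microRNAs and not for the whole genome, so the members whose sequence could be read are those at promoters of long non-coding RNAs (lncRNAs). A window ran from 250 bases before to 50 bases after the annotated start of a gene. Desert summits fell in 28 such windows, belonging to 27 lncRNAs. The 4 windows below held the summits with the highest fold enrichment among the 28, and were chosen for that after their values were seen. They are printed 5′ to 3′ on the strand of the lncRNA, from RefSeq GRCm38.p6, the assembly named mm10. Capitals mark matches to the letters GGGNGNGG, read on either strand. A match on the opposite strand appears as its reverse complement, and matches that overlap run together.
Gm35481: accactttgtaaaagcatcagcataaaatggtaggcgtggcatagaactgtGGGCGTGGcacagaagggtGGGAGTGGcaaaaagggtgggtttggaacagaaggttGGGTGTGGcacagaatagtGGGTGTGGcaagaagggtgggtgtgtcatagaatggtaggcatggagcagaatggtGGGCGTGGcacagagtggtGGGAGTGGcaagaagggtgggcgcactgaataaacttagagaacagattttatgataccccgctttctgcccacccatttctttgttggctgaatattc
1190028D05Rik: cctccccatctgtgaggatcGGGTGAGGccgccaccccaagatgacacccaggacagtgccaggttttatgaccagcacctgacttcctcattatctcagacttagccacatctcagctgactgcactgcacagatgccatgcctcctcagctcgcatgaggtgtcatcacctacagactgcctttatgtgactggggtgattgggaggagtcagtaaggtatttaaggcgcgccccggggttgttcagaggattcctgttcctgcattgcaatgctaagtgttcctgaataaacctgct
Dubr: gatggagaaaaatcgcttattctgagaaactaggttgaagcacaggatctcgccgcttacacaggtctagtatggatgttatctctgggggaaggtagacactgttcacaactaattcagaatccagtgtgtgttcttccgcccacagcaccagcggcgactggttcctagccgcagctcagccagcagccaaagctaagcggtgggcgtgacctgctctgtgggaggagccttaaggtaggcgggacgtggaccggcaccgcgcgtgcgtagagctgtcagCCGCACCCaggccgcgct
Gm26901: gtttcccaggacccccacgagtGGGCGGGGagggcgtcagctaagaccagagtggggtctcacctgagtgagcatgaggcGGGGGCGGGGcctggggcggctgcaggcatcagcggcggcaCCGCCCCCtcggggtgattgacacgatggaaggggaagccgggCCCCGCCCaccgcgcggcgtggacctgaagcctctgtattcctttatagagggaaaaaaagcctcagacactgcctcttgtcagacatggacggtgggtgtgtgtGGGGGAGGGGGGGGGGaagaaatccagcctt

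The Gm35481 window, at chr2:171638963-171639262 on the minus strand, lies 759 kb from Dok5 and 397 kb from Cbln4, the nearest coding genes. Its summit had a fold enrichment of 18.1 over input with a pileup of 76 extended tags, and the window held 6 matches, all of which also spell GGGNGTGG. The 1190028D05Rik window, at chr8:52356361-52356660 on the plus strand, lies 2834 kb from Tenm3 and 1155 kb from Aga. It held 1 match, with a fold enrichment of 12.9. The Dubr window, at chr16:50732724-50733023 on the minus strand, held 1 match and had a fold enrichment of 10.9 at 142 kb from Ccdc54. Dubr is a lncRNA known from muscle cell differentiation. The Gm26901 window, at chr1:7398047-7398346 on the minus strand, lies 225 kb from Pcmtd1 and held 10 matches in a sequence of 65.7% G and C, with a fold enrichment of 10.7. The number of matches and the fold enrichment thus did not run in the same order over these 4 windows.

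Matches were more frequent in the windows that held a desert summit than in other lncRNA windows. GGGNGNGG occurred in 24 of 28 windows with a desert summit (85.7%, 95% interval 67.3 to 96.0), against 24.3% (22.5 to 26.3) of the 1988 desert lncRNA windows without one. It occurred in 36.5% of all 11311 lncRNA windows, in 57.3% of 20085 protein-coding windows and in 49.8% of all 31396 windows. The stricter letters GGGNGTGG occurred in 39.3% (21.5 to 59.4) of windows with a desert summit and in 9.81% of desert lncRNA windows without one, beside 17.7% of all windows. GGGCGG, the core of the GC box, occurred in 42.9% (24.5 to 62.8) of the windows with a summit and in 5.08% of those without, beside 36.0% of all windows and 47.0% of protein-coding windows, both of which lie inside its interval. The windows with a summit were also richer in G and C, with a median of 54.5% against 44.7%, and how much of the difference in letters goes with base composition was not tested. Windows on chromosome 18 were not used here.

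**Figure D1:**
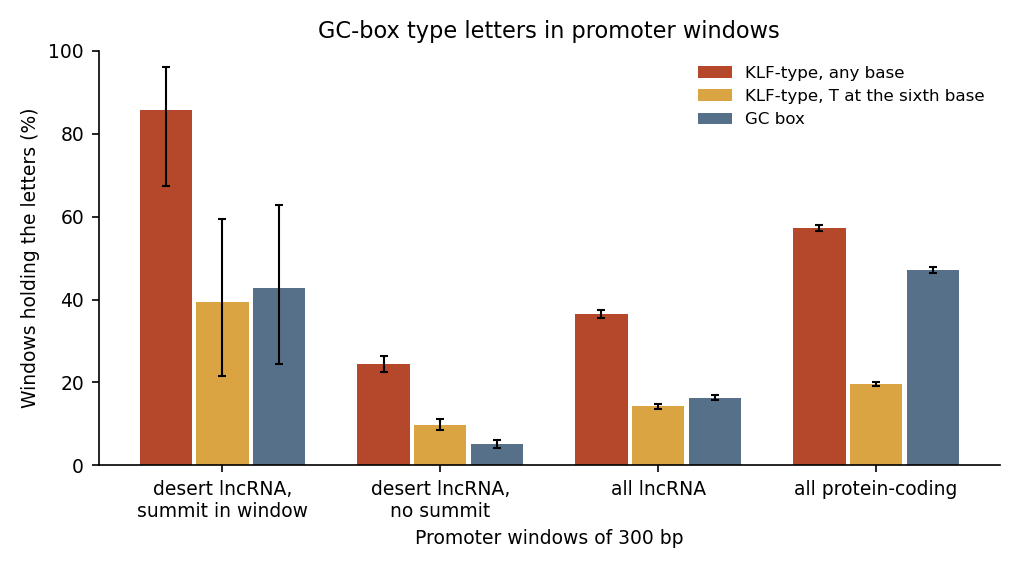
Percent of 300 bp promoter windows that hold GGGNGNGG (KLF-type, any base), GGGNGTGG (KLF-type, T at the sixth base) or GGGCGG (GC box) on either strand; error bars are exact 95% binomial intervals. The 28 desert lncRNA windows with a summit stand at 85.7%, 39.3% and 42.9% for the 3 spellings, against 24.3%, 9.81% and 5.08% for desert lncRNA windows without one.

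MicroRNA genes were the other annotated sequence near desert summits. Within 5 kb of a desert summit lay 5 microRNA genes: Mir205, Mir124a-2, Mir137, Mir125b-1 and Mir3072. RefSeq sequences (GRCm38.p6) were at hand for 4 of the 5, and their mature forms are printed here because they name the products encoded beside these summits. Capitals mark the seed, bases 2 to 8.
mmu-miR-205-5p: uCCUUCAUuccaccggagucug
mmu-miR-205-3p: gAUUUCAGuggagugaagcuca
mmu-miR-137-5p: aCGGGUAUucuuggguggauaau
mmu-miR-137-3p: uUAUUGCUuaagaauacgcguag
mmu-miR-125b-5p: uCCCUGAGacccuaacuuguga
mmu-miR-125b-1-3p: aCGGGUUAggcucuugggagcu
mmu-miR-3072-5p: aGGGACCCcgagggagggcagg
mmu-miR-3072-3p: uGCCCCCUccaggaagccuucu

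Each of these seeds differs from the others, so the microRNAs form no shared seed family. Mir205, whose product is known from epithelial cells, had the most summits. Its precursor lies between Camk1g and Plxna2 on chromosome 1, and 4 desert summits stood within 5 kb of it, at 2.63, 2.63, 3.35 and 4.55 kb. Their fold enrichments were 6.83, 4.46, 2.90 and 3.77 in that order, and the second of them fell in the promoter window of the host gene Mir205hg. Mir137, known for its part in neurons, had a summit at 564 bp with a fold enrichment of 6.35. Mir125b-1, the mouse relative of the worm microRNA lin-4, had a summit at 990 bp with a fold enrichment of 7.08, inside the lncRNA Mir100hg. Mir124a-2, which encodes the brain microRNA miR-124, had a summit at 836 bp with a fold enrichment of 3.38. Mir3072 lies between Rtl1 and Dio3 and had a summit at 2065 bp with a fold enrichment of 3.905. All of these fold enrichments lay under 10.

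The immunoprecipitates were sequenced to like depth. After duplicate positions were dropped, the V5-KLF5 immunoprecipitate kept 23.2 M (mega) of 28.8 M tags, and the control immunoprecipitates kept 21.8 to 24.5 M. The IgG immunoprecipitate gave 3 peaks and the V5 immunoprecipitate of untagged cells gave 0. The header of the untagged list carries the run name of another mouse ES line, JM8.N4, so it is uncertain which line that control is.

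The control peaks touched 2 of the 2400 desert peaks. All 3 IgG peaks overlapped these, at chr17:39843067-39846544 and chr17:39847860-39848893, between the exocrine peptide genes Esp15 and Esp38. This locus holds ribosomal RNA sequence and the lncRNA AY036118. The V5-KLF5 peaks there had fold enrichments of 2.24 and 2.88 over input backgrounds of 128 and 122 tags, against IgG fold enrichments of 1.66, 1.78 and 1.798. A desert peak on chromosome 2, chr2:98666770-98667113, stood on a still higher input background of 193 and had a fold enrichment of 1.42, the lowest of all 44760 summits. Outside these 3 members, the highest input background at a desert summit was 16.3. The median fold enrichment was 5.37 over 2400 and over 2397 summits, with and without them.

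Desert summits were sparse. Deserts covered 656 Mb, or 27.3%, of the 2402 Mb between the outermost genes or peaks of chromosomes 1 to 19, and held 3.66 summits per Mb (95% interval 3.51 to 3.81), against 24.3 per Mb (24.0 to 24.5) outside deserts. The ratio of these densities was 0.151. Unmappable sequence counts as territory here, and its share in deserts was not measured, so the densities are lower bounds on those of mappable sequence.

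Within the deserts, density was lower at larger distance. Intergenic sequence 10 to 100 kb from a coding gene held 14.9 per Mb (14.5 to 15.2). From 100 to 200 kb from the nearest coding gene there were 6.44 summits per Mb (6.09 to 6.799), from 200 to 500 kb 3.32 (3.11 to 3.56), from 500 kb to 1 Mb 1.35 (1.16 to 1.56) and beyond 1 Mb 1.32 (1.06 to 1.63). The intervals of the zones do not overlap up to 500 kb, whereas those from 500 kb to 1 Mb and beyond 1 Mb overlap almost fully. They count each summit as independent, while neighbouring summits share a locus, so they may be too narrow and are no test between zones. Of the members, 1277 lay in the nearest zone and 87 beyond 1 Mb, and the median distance was 188 kb with quartiles of 133 and 310.4 kb.

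**Figure D2:**
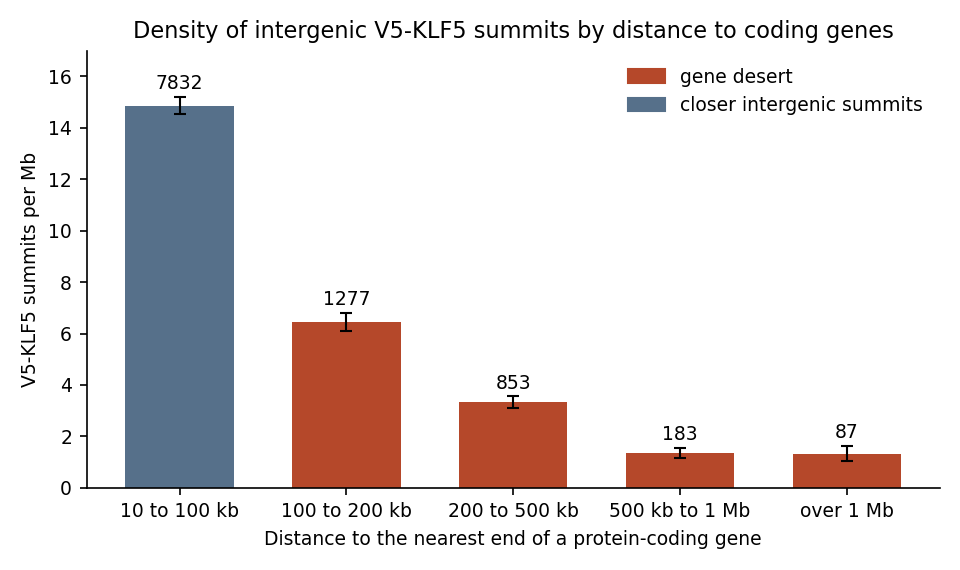
V5-KLF5 summits per Mb (vertical axis) in intergenic sequence by distance to the nearest end of a protein-coding gene; bars are densities, error bars exact 95% Poisson intervals, and the number over each bar counts summits. Density is 14.9 per Mb at 10 to 100 kb, 6.44 per Mb at 100 to 200 kb and 1.32 per Mb beyond 1 Mb.

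Density was lower in deserts than outside them on each of the 19 chromosomes. Desert density ranged between 2.50 per Mb on chromosome 16 and 5.57 per Mb on chromosome 13, with a median of 3.61. The ratio of desert density to the density outside deserts ranged between 0.115 and 0.302. Median fold enrichment per chromosome ranged between 4.93 and 5.99.

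**Figure D3:**
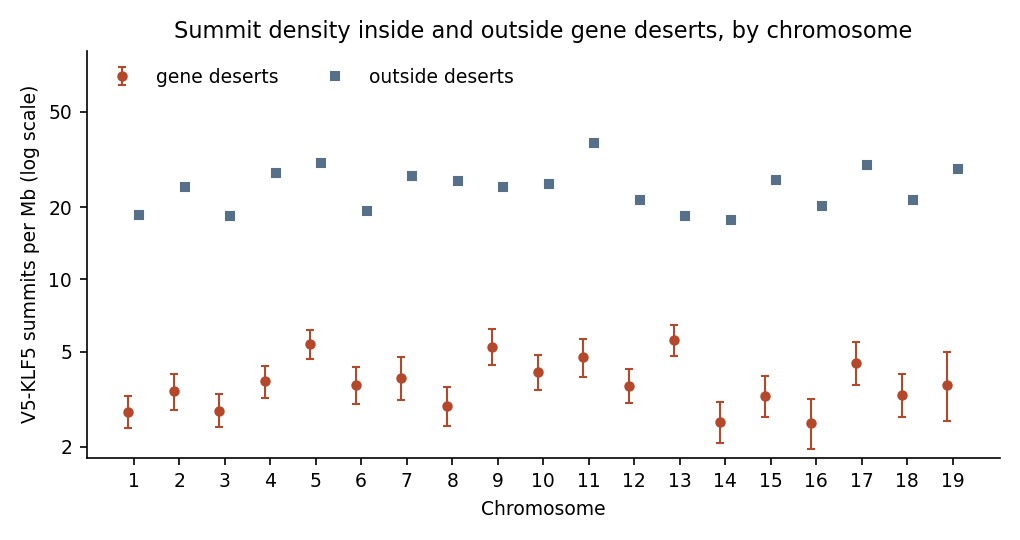
V5-KLF5 summits per Mb on a log axis for each of chromosomes 1 to 19, inside gene deserts (circles, with exact 95% Poisson intervals) and outside them (squares). Desert density lies under the density outside deserts on all 19 chromosomes, at 0.115 to 0.302 of it.

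Desert summits were about as enriched as summits elsewhere. Their median fold enrichment was 5.37 (95% interval 5.17 to 5.38) with quartiles of 4.18 and 7.50, against 5.18 (5.17 to 5.19) over the 42360 other summits, a log2 difference of 0.05. At the lowest input background a single extended tag is worth 0.244 in fold enrichment, more than this difference. The difference also turns round with the measure: the median pileup was 23 tags in deserts and 24 elsewhere. A fold enrichment of at least 10, used here to call a summit strong, was reached by 305 desert summits, 12.7% (11.4 to 14.1), beside a background of 13.0% over all summits of chromosomes 1 to 19. This share lies near the background. Among the 1003 summits tied within the first 1000 by fold enrichment, 48 were desert summits, and 2 were among the first 100. These counts stand beside a desert share of 5.36% over all summits, and the difference was not tested.

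Other features of the peaks differed more. Desert peaks were shorter, with a median length of 393 bp against 430 bp elsewhere, and 2.71% (2.096 to 3.44) of them were at least 1 kb long, against 6.10% (5.88 to 6.33). The longest class was that at coding gene ends, with a median of 512 bp, while intergenic peaks 10 to 100 kb from a gene had 408 bp. Peaks of at least 1 kb made up 10.0% of the former class and 4.24% of the latter. The input background was at its genome-wide minimum of 3.10 tags under 55.1% (53.1 to 57.1) of desert summits and under 35.4% (35.0 to 35.9) of the others. For intergenic summits 10 to 100 kb from a gene this share was 39.6%. Within the summits at that minimum the median fold enrichment was 5.37 in deserts and 5.12 elsewhere, and above it 5.17 in deserts and 5.18 elsewhere. Median fold enrichment was 5.18 at 100 to 200 kb, 5.37 at 200 to 500 kb, 5.61 at 500 kb to 1 Mb and 6.10 (5.37 to 6.59) beyond 1 Mb, where 67.8% of summits stood on the minimum background. The part of the input background in that order was not tested.

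**Figure D4:**
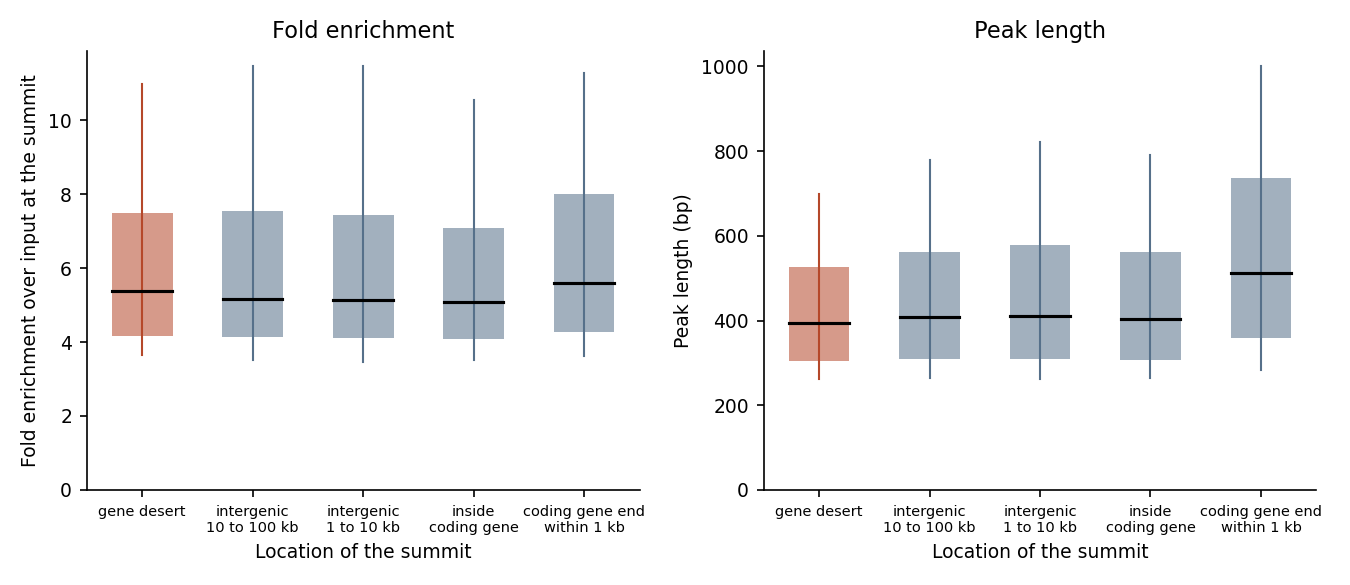
Fold enrichment over input at the summit (left) and peak length in bp (right) for desert summits and the 4 other location classes; boxes span the quartiles, black lines are medians and thin lines run from the 10th to the 90th percentile. Desert summits have a median fold enrichment of 5.37 and the shortest median length, 393 bp, against 404 to 512 bp in the other classes.

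The strongest desert summit lay on chromosome 4 at chr4:153233699-153234266, 671 kb from Nphp4, which encodes a protein of the primary cilium, and 139 kb from Ajap1, an adherens junction-associated protein. It had a fold enrichment of 35.4 and a pileup of 144 tags, and ranked 59th of all 44760 summits. The second, on chromosome 12 at chr12:29095894-29096675, had a fold enrichment of 33.5 and lay 229 kb from Eipr1 and 431 kb from Myt1l, a zinc-finger factor of neurons. Both stood above the other 10 of the 12 strongest, which lay between 24.3 and 29.3.

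A summit between the sodium-calcium exchanger gene Slc8a1 and Pkdcc, which encodes a secreted tyrosine kinase, reached 29.3 at 178 kb from Pkdcc. The summit between Srrm4, a neuronal splicing regulator, and Suds3, a subunit of the Sin3 corepressor, reached 27.7. Summits between Ccdc59 and Ppfia2 (26.5), Tbc1d1 and Gm38457 (26.2), and the forkhead gene Foxd1 and Tmem174 (25.9) followed. The imprinted genes Rtl1 and Dio3 enclosed a summit with 24.8, at 331 kb from Dio3, which encodes a thyroid hormone deiodinase. Summits between Gm44812 and Mctp2 (24.6), Klf4 and Actl7b (24.4), and Tnfaip3, an inhibitor of NF-kappaB signalling, and Olig3 (24.3) followed at the lower end of this range. The 12 strongest lay on 8 chromosomes, and 4 of them fell inside an annotated lncRNA, beside 18.96% of all desert summits. This difference was not tested.

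Deserts differed widely in how many summits they held. Of 1386 desert stretches, 744 (53.7%, 51.01 to 56.3) held at least 1 summit, and 32 held 10 or more, together 435 summits or 18.1% of the members. The share with a summit grew with length, from 26.0% (21.9 to 30.3) of 439 stretches under 100 kb to 93.4% (84.1 to 98.2) of 61 stretches over 2 Mb. Density went the other way, at 11.6 summits per Mb in the shortest and 1.51 per Mb in the longest class. Length and distance to genes are tied by construction, so these orders are not separate observations.

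The stretch between Auts2 and Castor2 on chromosome 5 held the most summits, 26 over 1.36 Mb. Auts2 encodes a component of Polycomb-type complexes, and Castor2 takes part in amino acid sensing. The highest fold enrichments there were 12.9 at 107 kb from Auts2 and 11.0 at 1201 kb, and the lowest was 3.14. Mn1 and Cryba4, also on chromosome 5, enclosed 24 summits over 0.589 Mb, the highest density of the 5 fullest stretches at 40.7 per Mb, with a highest fold enrichment of 11.5. Nphp4 and Ajap1 enclosed 19 summits, 4 of them with a fold enrichment of at least 10. Cdh26 and 4930591A17Rik on chromosome 2 enclosed 19 with a highest value of 13.2. Cd83 and Jarid2, a Polycomb-associated gene, enclosed 19 on chromosome 13, with highest values of 18.7 at 426 kb and 15.5 at 209.9 kb from Cd83. Long stretches were thinner. The 3 longest lay between Pcdh20 and Pcdh9 (4.34 Mb, 9 summits), Celf4 and Pik3c3 (4.31 Mb, 9 summits) and Olfm4 and Pcdh17 (4.22 Mb, 6 summits), at 1.42 to 2.09 per Mb. The longest stretch with 0 summits ran over 2.89 Mb between Ncam2 and Mrpl39.

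The member farthest from any coding gene lay in the stretch beside Pcdh17, a protocadherin gene, on chromosome 14. Its distance was 2149.6 kb from Pcdh17 and 2271 kb from Olfm4, and its fold enrichment was 4.88. The next farthest were neighbours between Celf4 and Pik3c3 on chromosome 18, 2.48 kb apart, at 1975 and 1972 kb from Celf4, with fold enrichments of 11.9 and 5.57.

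Most desert summits stood alone at the gap used here. Joined over gaps of at most 12500 bp, the 2400 members formed 1912 groups, of which 1573 were single summits (65.5% of members), 251 were pairs and 88 held 3 or more, together 325 members (13.5%). A further summit of any class lay within 12500 bp of 35.3% (33.4 to 37.3) of desert summits, against 70.5% (70.0 to 70.9) of the others and 63.4% of intergenic summits 10 to 100 kb from a gene. The median distance to the next summit was 27.9 kb in deserts and 5.06 kb elsewhere. Wider spacing goes with the lower density of desert summits, 3.66 against 24.3 per Mb. Spacing was not compared at equal density, so these values do not say whether desert summits cluster more or less for their density. A fold enrichment of 10 was reached by 13.2% of members in groups of 3 or more and by 11.6% of single members, beside 12.7% of all members. Members in pairs are left out of this contrast, so it gives no order by group size, and it was not tested. The median was 5.37 both in groups of 3 or more and in single members.

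The largest group held 10 summits within 24.4 kb and contained the strongest member, that of 35.4 near Ajap1. The fold enrichments along it were 4.34, 4.14, 11.7, 4.27, 3.04, 6.00, 3.10, 35.4, 3.66 and 4.88. A single summit thus stood far above its neighbours, with 1 other over 10. Between Spring1 and Med13l, which encodes a Mediator subunit, 8 summits spanned 33.8 kb and 3 of them were strong, at 17.3, 16.0 and 20.3. These included peaks of 3156 and 2093 bp, long for a desert. Unc93a2 and Fndc1 enclosed 6 summits within 9.88 kb, with the highest at 17.4 and 12.7. Slc22a12 and Rps6ka4 enclosed 6 within 23.8 kb, with the highest at 11.96 and 11.2. Rybp, a Polycomb subunit gene, and Shq1 enclosed 6 within 12.7 kb, with the highest at 10.7.

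Sox2, a core pluripotency factor that sits alone in a gene-poor stretch of chromosome 3, was flanked by 16 desert summits. A single one lay to its left, 179.8 kb away, with a fold enrichment of 3.88. The other 15 lay downstream, between Sox2 and Atp11b. The first 4 were a group at 102.9, 104.5, 105.6 and 108.9 kb from Sox2 with fold enrichments of 3.93, 10.3, 15.5 and 17.4, and the last of these was a peak of 1705 bp. A distal enhancer cluster downstream of Sox2, the Sox2 control region, is known in mouse ES cells; whether these summits fall in it was not tested. A further summit at 233 kb reached 15.1 with a pileup of 118 tags over an input background of 6.90. The 10 remaining summits to the right, at 143 to 985 kb, had fold enrichments of 3.42 to 8.48. Between Sox2 and Atp11b, values over 10 thus occurred only within 233 kb of Sox2.

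**Figure D5:**
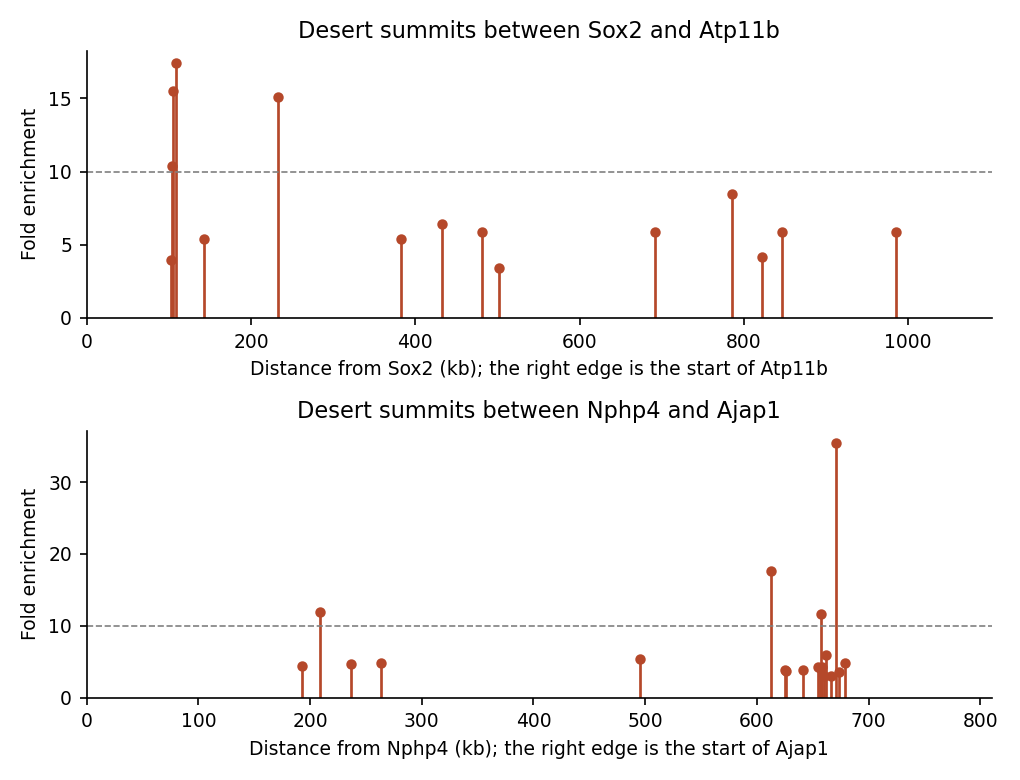
Fold enrichment of each desert summit (vertical axis) against its distance in kb from Sox2 (top) and from Nphp4 (bottom), up to the next coding gene; the dashed line marks a fold enrichment of 10. Values over 10 beside Sox2 lie at 104.5 to 233 kb, and the value of 35.4 beside Nphp4 stands 671 kb away in a group of lower summits.

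Genes next to desert summits were counted as the nearest coding gene on either side of a member. This held for 1345 of 20560 coding genes, a background of 6.54%, and for 57.2% of the 2353 coding genes that border a desert stretch. For strong summits alone it held for 439 genes, a background of 2.14% of all coding genes. Only genes that border a desert can have one, so for the lists these 439 stand beside the 2353 bordering genes. Of 20 pluripotency regulators 10 border a desert, and 8 had a desert summit: Klf4, Mycn, Myc, Tbx3, Nr5a2, Sox2, Sall1 and Klf5. The 6 first named had a strong one. Klf4, the relative of KLF5, had 4 desert summits, the strongest at 943 kb with 24.4 and closer to Actl7b. Mycn had 10, with 23.9 at 147 kb. Myc, encoding a growth-promoting transcription factor, had 11, with 20.7 at 969 kb. Tbx3, a T-box factor of ES cells, had 14, with 19.8 at 311 kb, and the nuclear receptor gene Nr5a2 had 5, with 19.02 at 214 kb. Klf5 itself had 1, at 197 kb with a fold enrichment of 5.497. The 15 stretches bordered by a gene of this list held 7.89 summits per Mb (6.10 to 10.0), against 3.66 over all deserts. By length, all desert stretches of 100 to 500 kb held 6.43 per Mb and those of 500 kb to 1 Mb held 3.92. The stretches of this and the other lists were not matched for length.

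Beside trophoblast regulators the highest values were lower, among 19 summits in their stretches against 66 in those of the pluripotency regulators. The median fold enrichments per gene were not lower, at 5.12 to 9.37 against 4.15 to 5.86. Of 14 genes, 6 border a desert and 4 had a desert summit: Id2, an inhibitor of basic helix-loop-helix factors, with 11.0 at 170.4 kb, Gata3 with 9.76 at 126 kb, and the AP-2 genes Tfap2a with 9.63 at 191 kb and Tfap2c with 8.90 at 141 kb. Only Id2 had a value over 10. Tfap2c and Bmp7, a gene of the signalling list below, enclose the same 7 desert summits, which are counted for both. The summit behind the Tfap2c value lies 168 kb from Bmp7. Stretches beside this list held 5.07 summits per Mb (3.06 to 7.92).

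Developmental transcription factors, a list of 39 factors of organ and tissue patterning, bordered deserts most often. Of these 34 border a desert, 27 had a desert summit and 7 had a strong one. The 7 of 34 stand beside 439 of 2353 over all bordering genes. The highest values were 18.5 for the nuclear receptor gene Nr2f1 at 2222 kb, 16.5 for Sall3 at 210.4 kb, 15.9 for Sox11 at 417 kb and 14.4 for Pou3f3 at 637 kb. The Nr2f1 summit lies closer to the coding gene on its other side, since no member is over 2149.6 kb from its nearest one. Among the others, Dach1 and Sox9 reached 10.7 and 10.2, while 20 had highest values between 3.75 and 8.93. Sall3 had 15 desert summits and Sox11 had 12. Irx3 and Irx5 enclose the same 9 desert summits, which are counted for both. Irx2 and Irx4 also share desert summits, so the genes of this list are not separate counts. Of 24 signalling genes 11 border a desert, 9 had a desert summit and 3 a strong one: Bmp2 with 13.9 at 350.4 kb, Bmp4 with 13.4 at 617 kb and Shh, with its single desert summit, at 11.7 and 130.1 kb. Stretches held 4.36 summits per Mb (3.62 to 5.22) beside the transcription factors and 6.94 (4.89 to 9.57) beside the signalling genes. Counting only the nearest coding gene of each summit, 22 transcription factors and 6 signalling genes had a desert summit. The pluripotency and trophoblast counts stayed at 8 and 4, and that of the neuronal adhesion genes below was 16.

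Neuronal adhesion genes, which encode cadherins and leucine-rich repeat proteins of the neuron surface, had desert summits in the largest share of all lists. Of 20, 17 border a desert, all 17 of these had a desert summit and 13 had a strong one. Summits shared by neighbouring genes are counted for both: Cdh6 and Cdh9 share a strongest summit of 11.5 on chromosome 15, and Slitrk5 and Slitrk6 share a strongest summit of 11.5 on chromosome 14. The highest were 19.3 for Lrrn1 at 143 kb, 16.4 for Flrt2 at 172 kb, 15.1 for Lrrtm4 at 267 kb and 13.9 for Pcdh18 at 2998 kb. The Pcdh18 summit lies closer to the coding gene on its other side. The stretches of this list were the thinnest, with 1.52 summits per Mb (1.22 to 1.86) over 59.4 Mb. Of these 28 stretches, 24 held a summit. Among all desert stretches this held for 86.3% of those of 1 to 2 Mb and 93.4% of those over 2 Mb. All stretches of these lengths held 2.31 and 1.51 summits per Mb. The part of stretch length in the values of this list was not tested. This list thus had the highest share of genes with a desert summit and the lowest density of summits in its stretches. None of 15 housekeeping genes borders a desert, so none could have a desert summit.

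Non-coding genes accounted for a minority of the members. Of the 2400, 455 (18.96%) lay inside a lncRNA gene, and 510 (21.3%, 19.6 to 22.9) inside or within 1 kb of one, against 24.3% (23.3 to 25.3) of intergenic summits 10 to 100 kb from a coding gene. With pseudogenes and small RNAs the count was 547 (22.8%, 21.1 to 24.5), against 26.9%. The members inside lncRNAs were spread over 331 genes. The most, 7 each, lay in 5730522E02Rik, Gm31615, Gm35551 and A930011G23Rik, with highest fold enrichments of 16.6, 11.8, 10.5 and 10.2. Pvt1, the lncRNA beside Myc, held 5 with a highest value of 18.4. Lncenc1, a lncRNA known from naive ES cells, held 5 with 9.77, and Mir100hg held 4 with 10.2.

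The distance limit cut through a continuous range. The 3 members just inside it lay 100.07, 100.11 and 100.13 kb from Car2, Bambi and Ramp3 and had fold enrichments of 12.3, 8.83 and 3.21. The 3 summits just outside it lay 99.93, 99.91 and 99.80 kb from Naf1, Slc44a1 and Btg1 and had 4.88, 3.905 and 5.59.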

How the data were processed

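Chromatin of 5 libraries was sequenced, and deposited peak lists of the 3 immunoprecipitates were used; the inputs enter only as background. Per the file headers, the authors called peaks with MACS2 2.1.0.20140616 on single libraries, against input from the same line, with 51 bp tags extended to 250 bp, 1 tag kept per position and a q-value cutoff of 0.05. The submitters' processing notes also name Bowtie 0.12.8 and the build mm10; the treatment of tags with several map positions was not given in the sources used here. Each deposited peak carries a pileup signal at the summit, a −log10 p-value, a −log10 q-value and a fold enrichment, the ratio of pileup + 1 over input background + 1, all made by the authors; these served only to describe and rank peaks within 1 list. The V5-KLF5 list rested on 23.2 M (mega) kept tags.

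The input background was recovered from pileup and fold enrichment; it has a floor of 3.10, so lower input cannot be seen. Summits were placed against 20560 protein-coding genes of RefSeq GRCm38.p6 (1-based coordinates). The table gave 328 genes, 105 of them coding, at positions under 3 Mb, where no peak of chromosomes 1 to 19 lies; these are taken to be scaffold positions and were left out, which changed no member. Territory ran between the outermost gene or peak of each chromosome. Intervals are exact (Clopper-Pearson for shares, Poisson for counts, order statistics for medians) at 95%. They treat summits as independent, which neighbouring summits are not, so intervals of densities, also those per gene list, may be too narrow. Python 3.11.15 with pandas 2.3.3, NumPy 2.4.6 and SciPy 1.17.1 was used, and counting steps were checked on simulated data. Named were the 12 members with the highest fold enrichment, the 3 farthest, the 5 fullest and 3 longest stretches, the summits beside Sox2, 3 on either side of the distance limit, up to 4 genes per list and the 5 largest groups; other names were chosen after their values were seen, and some named items are not reported here. The members and the 6 gene lists were chosen with earlier results of these data known. No genome of the build was given, so motif counts around every summit were not run and promoter windows took their place.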

Additional observations from a re-analysis of the deposited data

Results flagged for a closer look

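Chromosome X was outside the comparisons above. The control lists hold 0 peaks on it, but only 3 peaks in all, so this tells little about the chromosome. Of 600 V5-KLF5 peaks on chromosome X, 42 had a summit that met the same distance rule (7%, exact 95% interval 5.09 to 9.34). The share of 5.36% on chromosomes 1 to 19 lies inside this interval. Their median fold enrichment was 4.76, and 5 reached 10.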

How the results depend on the processing

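No paired analysis was possible because each group is 1 library and no result comes from a test. Over the alternatives tried, 66 values kept within their interval or within 1.5 times the count, 47 moved and 2 changed sign. With a distance of 50, 200 or 500 kb there were 4412, 1123 or 270 desert summits (9.86%, 2.51% or 0.603%), at 5.26, 2.45 or 1.34 per Mb and at 0.204, 0.109 or 0.0663 of the density outside. At 200 and 500 kb 735 and 225 genes flanked a summit. At 500 kb the median fold enrichment was 5.62 and its log2 difference to other summits 0.12. That difference was -0.061 for pileup, 0.067 at the minimum background and -0.0024 above it. At and above the minimum background, 10.1% and 15.9% of desert summits reached a fold enrichment of 10, against 11.2% and 14.1% of the other summits. A −log10 q of at least 10 kept 1139 members, at 1.74 per Mb, with a median fold enrichment of 7.68, 26.8% at 10 or more, a median pileup of 34, a median length of 500 bp and 37.7% of stretches holding a summit. A fold enrichment of at least 10 kept 305, at 0.465 per Mb, with 1.97% in groups of 3 or more, 16.5% of stretches holding a summit and 439 flanking genes. Counting lncRNA genes as bounds left 683 (1.53%). Joining gaps of 5 or 25 kb put 6.38% or 23.4% in groups of 3 or more. Within 10 kb of a non-coding gene lay 37.7%. Promoter windows with a summit held GGGNGTGG in 39.3% and GGGCGG in 42.9%; promoter windows, and leaving out the 9 peaks on a high input background, which moved no value listed here out of its range, were chosen after seeing the data. Motif windows of other widths were not run. These alternatives change what is counted by construction; with 1 library, the spread between cultures is not known.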
